A study of Mus musculus with 4 samples.

Results

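The Hox genes are described here by paralogue number in 4 libraries of messenger RNA from differentiated embryonic stem cell (ESC) lines. The members were taken by name, as every gene of the deposited table called Hoxa, Hoxb, Hoxc or Hoxd with only a number from 1 to 13 after it. There were 39 of them among 24637 genes, 11 in the Hoxa cluster, 10 in Hoxb, 9 in Hoxc and 9 in Hoxd. The family was selected on its values in the comparison of these same libraries, so the differences between genotypes are given as a description and not as a test.

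The series compared ESC lines that lack the TFIID subunit Taf4a with WT lines after differentiation towards cardiomyocytes. Lines of both genotypes were isolated from blastocysts of crosses between Taf4a+/- animals, and the null allele lacks exons 11 and 12 of Taf4a in every cell. Each genotype had 2 libraries, each from an independent line (the labels call them Taf4+/+ or WT, and Taf4 KO for the lines named Taf4a-/- here). All lines had been grown on feeder fibroblasts, were cultured for 5 days as embryoid bodies in medium with serum, and then for 9 days on gelatin-coated plates. Each library stands for 1 line, and bulk RNA was sequenced, so fewer cells of a type and less RNA per cell cannot be told apart. Between 21732746 and 27733034 reads were counted on genes per library. Values are read counts that the authors divided by a size factor for each library, called normalized counts below.

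Hox genes encode homeodomain transcription factors that give cells of the trunk, hindbrain and limbs their position along the body axis. They lie in clusters of paralogues, and genes with low numbers are switched on first and furthest towards the head, those with high numbers later and towards the tail. In stem cells the clusters are covered by Polycomb marks, and retinoic acid, Wnt and Cdx proteins open them in order. In mm9 coordinates the Hoxb cluster spans chr11:96055630-96229570, Hoxc chr15:102751534-102867274 and Hoxd chr2:74506367-74603200, from the first to the last of their numbered genes, and the Hoxa cluster lies on chromosome 6.

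Taf4a itself, the targeted gene, was counted at 889 (replicate 1) and 678 (replicate 2) in WT and at 1722 and 1799 normalized counts in the libraries with the Taf4a-/- label. The gene-level count was thus higher, not lower, in the libraries with the null label (log2 fold change 1.18, standard error 0.16). Counts over a whole gene do not separate exons 11 and 12, so they cannot check the deletion, and the libraries are called mutant-labelled below. The paper identified its null lines by PCR and reported that immunostaining found no Taf4 protein in them as stem cells. The labelled cell type is cardiac cells. All 10 cardiomyocyte markers listed were detected in WT. All 10 were called lower (as defined below) in the mutant-labelled libraries, as were 17.3% of all genes tested. Their summed level there was 2681 to 3039 normalized counts against 25925 to 28853 in WT.

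The difference between the libraries was fitted with limma on log2(normalized counts + 1) over 16926 genes, those whose mean was at least 10. Genes are said to be called where the p-value, adjusted over all of them by the Benjamini-Hochberg method, was under 0.05. That log scale understates the change of genes with few counts. Of the 39 Hox genes, 38 were tested. Hoxb13, which acts in the tail bud and prostate, had too few counts, with 2.63 and 8.31 normalized counts in WT and 1.96 and 4.42 in the mutant-labelled libraries. Hoxa6 and Hoxc12 passed the filter only through the mutant-labelled libraries.

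The summed level of the 39 Hox genes was 3394 and 2455 normalized counts in WT (in the order of the replicate numbers, as in all such pairs below) and 8744 and 9007 in the mutant-labelled libraries, a 3.03-fold difference of the means. In 36 of 39 Hox genes both mutant-labelled libraries were above both WT libraries, in 0 they were below, and in Hoxa2, Hoxb2 and Hoxb13 the genotypes overlapped. Over all genes tested, 34.5% had both mutant-labelled libraries above and 36.6% had both below. By limma 29 Hox genes were called higher and 0 lower, where 11.3% of all genes tested were called higher and 17.3% lower. At an unadjusted p under 0.05 the numbers were 30 higher and 0 lower in limma, and voom, a limma fit on the recovered reads, also called 0 lower, with 0 lower at an unadjusted p under 0.05. The median log2 fold change was 1.95 over the 38 Hox genes and -0.01 over all genes tested. Without Hoxa6 and Hoxc12, which passed the filter only through the mutant-labelled libraries, 27 of 36 were called higher and the median was 1.93.

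The number called leaned on WT replicate 2, in which most Hox genes were lowest. Without that library 17 Hox genes were called higher, when 4.40% of all genes were, and the median log2 fold change was 1.54. Of the 12 genes that lost the call, those named here are Hoxa13, Hoxb1, Hoxb4, Hoxb5, Hoxb8, Hoxb9, Hoxc5, Hoxc9, Hoxd3, Hoxd4 and Hoxd9. Without WT replicate 1 the number was 30, with Hoxa4 gained, when 14.6% of all genes were called higher. Without mutant-labelled replicate 1 it was 25, with Hoxa13, Hoxc5, Hoxc9 and Hoxd4 lost, and without mutant-labelled replicate 2 it was 23, with Hoxa13, Hoxb4, Hoxb9, Hoxc5, Hoxd4 and Hoxd9 lost, and 3.69% of all genes were called higher in each of these fits. With 1 library left out, its genotype has a single library, and the spread comes from the pair of the other genotype, so such a fit assumes that the lone library varies like that pair. The log2 fold changes of all 38 Hox genes were above 0 with all 4 libraries, and that of Hoxb2 was below 0 without WT replicate 2.

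**Figure D1:**
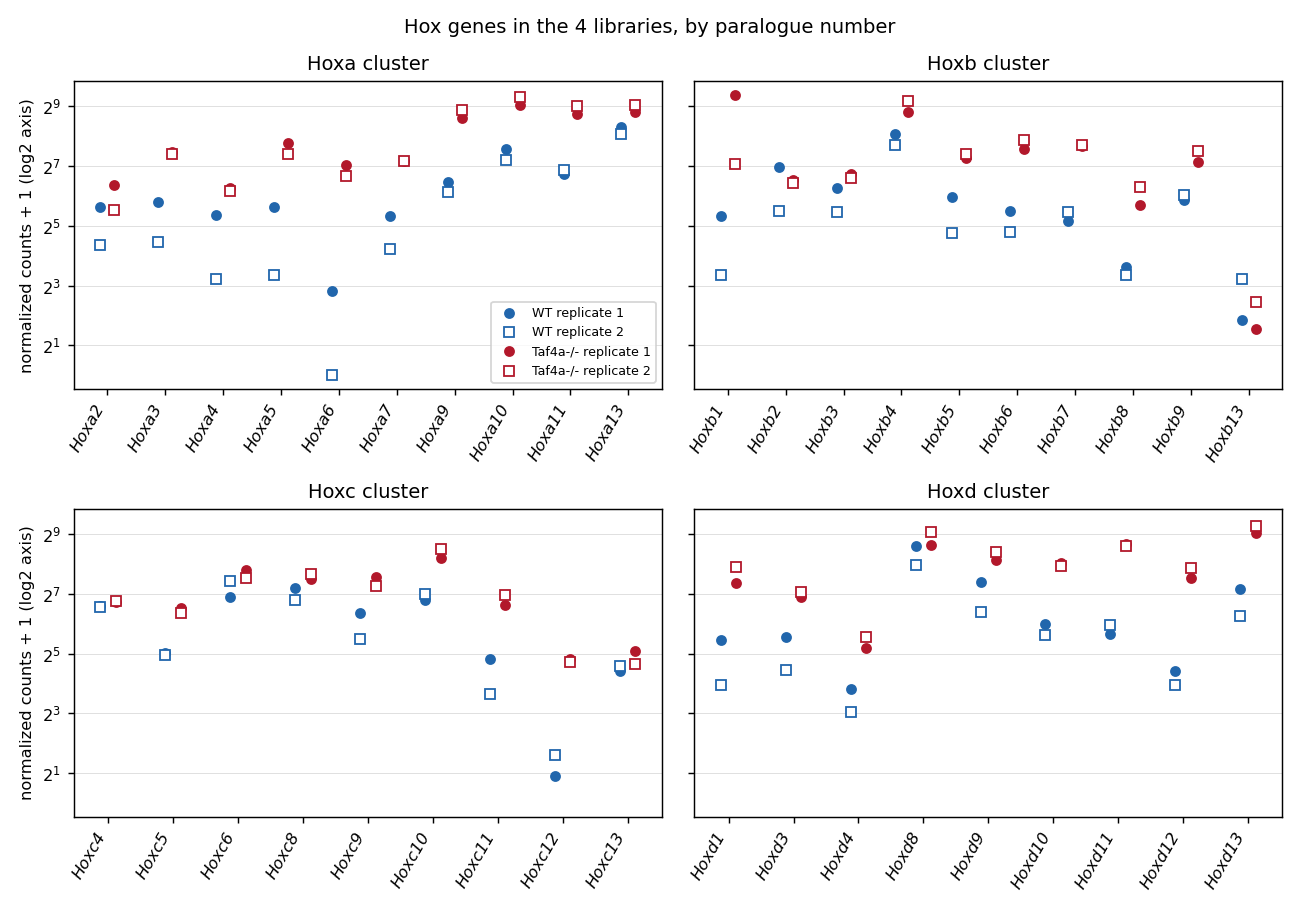
Normalized counts + 1 of the Hox genes shown on a log2 axis, in 1 panel per cluster with the genes ordered by paralogue number, for WT (blue) and mutant-labelled (red) replicates 1 (filled circles) and 2 (open squares). The red points lie above the blue points in every gene drawn except Hoxa2, Hoxb2 and Hoxb13, and the blue circles lie above the blue squares for every gene drawn from paralogue groups 1 to 3.

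The promoters of 5 members are shown so that the letters upstream can be read side by side. Hoxa6, Hoxb1, Hoxc4 and Hoxd12 had the largest log2 fold change among the members of their cluster with a promoter entry. Hoxc4 was the only Hoxc member with an entry, and its log2 fold change was the smallest of all members tested. The promoter of Hoxb8 was added after its motif matches were seen. Each is the 250 bases before the start of the RefSeq gene in GRCm38.p6, read 5′ to 3′ on the strand of the gene. Capitals mark matches to TTTATNG, the kind of site bound by CDX and posterior HOX proteins, or to TGATNNAT, the kind bound by PBX and HOX proteins together. The windows are chr6:52208673-52208922 on the minus strand for Hoxa6, and on the plus strand chr11:96365508-96365757 for Hoxb1, chr11:96281655-96281904 for Hoxb8, chr15:103034145-103034394 for Hoxc4 and chr2:74674763-74675012 for Hoxd12.
Hoxa6: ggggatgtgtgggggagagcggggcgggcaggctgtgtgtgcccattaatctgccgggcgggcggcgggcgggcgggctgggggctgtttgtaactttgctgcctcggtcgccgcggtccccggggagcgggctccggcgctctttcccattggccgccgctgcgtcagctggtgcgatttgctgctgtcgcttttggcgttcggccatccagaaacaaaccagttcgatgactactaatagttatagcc
Hoxb1: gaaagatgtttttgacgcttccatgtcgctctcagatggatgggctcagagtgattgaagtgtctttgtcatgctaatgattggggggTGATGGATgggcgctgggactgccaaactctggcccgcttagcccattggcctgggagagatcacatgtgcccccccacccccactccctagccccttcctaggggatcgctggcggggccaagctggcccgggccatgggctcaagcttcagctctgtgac
Hoxb8: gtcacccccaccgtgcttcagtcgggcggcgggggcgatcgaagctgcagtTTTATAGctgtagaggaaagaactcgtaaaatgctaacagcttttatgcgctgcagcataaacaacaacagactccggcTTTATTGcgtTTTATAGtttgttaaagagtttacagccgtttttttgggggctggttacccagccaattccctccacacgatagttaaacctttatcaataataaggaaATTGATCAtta
Hoxc4: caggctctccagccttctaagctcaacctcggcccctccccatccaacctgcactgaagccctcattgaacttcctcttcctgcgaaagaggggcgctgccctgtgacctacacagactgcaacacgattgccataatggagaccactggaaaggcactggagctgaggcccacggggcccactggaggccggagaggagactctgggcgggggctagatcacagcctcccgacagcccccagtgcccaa
Hoxd12: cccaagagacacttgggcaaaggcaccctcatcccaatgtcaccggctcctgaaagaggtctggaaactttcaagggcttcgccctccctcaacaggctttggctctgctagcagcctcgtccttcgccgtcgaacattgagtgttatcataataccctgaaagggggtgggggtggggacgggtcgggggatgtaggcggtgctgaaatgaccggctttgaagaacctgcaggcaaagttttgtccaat

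Hoxb1 held TGATNNAT on the strand of the gene, with its first base at -162 from the start. Hoxb8 held TTTATNG on the strand of the gene at -199, -120 and -110, and TGATNNAT on the other strand at -11. At -199 and -110 the letters also read TATAAA, the letters of a TATA box, on the other strand. These are matches of letters only, and binding of TFIID there was not tested. The windows of Hoxa6, Hoxc4 and Hoxd12 held none of the motifs searched.

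RefSeq entries were found for 22 of the 39 Hox genes, with 24 promoters, each of 250 bases before to 50 after the start. TATAAA on either strand was in 16.7% of the 24 (Hoxa10, Hoxb8, Hoxd4 and Hoxd13) and in 13.6% of all 32851 promoters of the same length. TGATNNAT was in 16.7% (Hoxa2, Hoxb1, Hoxb8 and Hoxd11) against 8.85%, and TTTATNG in 8.33% (Hoxb8 and Hoxd4) against 10.9%. An exact form of the repeat bound by retinoic acid receptors, AGGTCA with a second copy after 5 other bases, was in 0 of the 24. It was in only 3 of all promoters (0.00913%), so a set of 24 could hardly hold it. Looser forms of the repeat were not searched. The median GC content was 57.7% in the Hox promoters and 52.7% in all. The matches describe letters in these windows only, and some genes with and some without a match had large differences. Members with no entry included Hoxa4, Hoxb2, Hoxb3, Hoxb5, Hoxb6, Hoxb7, Hoxb9, Hoxb13 and, in Hoxc, Hoxc5, Hoxc6 and Hoxc8 to Hoxc13.

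Paralogue group 1 holds the earliest Hox genes, of which Hoxb1 sets the identity of a hindbrain segment. Hoxb1 had 39.5 and 9.35 normalized counts in WT, against 665 and 135 in the mutant-labelled libraries. Both mutant-labelled libraries were above both WT libraries, but they differed from each other by 2.29 on the log2 scale, the widest gap within that genotype among the 38 genes tested. Its log2 fold change was 3.88 (standard error 0.90). Hoxd1, known for its role in sensory neurons, had 43.0 and 14.5 normalized counts in WT against 164 and 237 (log2 fold change 2.92, standard error 0.53). Both genes were called higher and their genotypes did not overlap, although Hoxb1 lost the call without WT replicate 2.

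The neighbouring group 2 stood apart from group 1. Hoxa2, which patterns the second pharyngeal arch, had 48.2 and 19.7 normalized counts in WT and 81.2 and 45.3 in the mutant-labelled libraries. Hoxb2, a target of Krox20 in the hindbrain, had 125 and 44.7 in WT and 92.0 and 86.3 in the mutant-labelled libraries. In both genes WT replicate 1 was above at least 1 mutant-labelled library, and neither was called. In group 3, Hoxa3, which is needed for the thymus and parathyroid, had 54.4 and 20.8 in WT and 177 and 170.3 in the mutant-labelled libraries. Hoxd3, which acts in the first cervical vertebrae, had 45.6 and 20.8 against 118 and 134. These 2 were called higher (log2 fold changes 2.33 and 1.99, standard errors 0.47 and 0.43), Hoxd3 not without WT replicate 2. Hoxb3 was not called, with 76.3 and 43.6 against 105 and 95.1.

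Groups 4 to 8 are the central genes, which act in the neck and chest. Hoxa6 was close to absent in WT, with 6.14 and 0 normalized counts, and had 129 and 101 in the mutant-labelled libraries. Its log2 fold change of 5.43 (standard error 0.91) depended on the pseudocount and on the WT lines, with 3.29 at a pseudocount of 10, 4.01 without WT replicate 2 and 6.85 without WT replicate 1. Hoxa5, which acts in the trachea and lung, had 48.2 and 9.35 normalized counts in WT and 219 and 167 in the mutant-labelled libraries (log2 fold change 3.09, standard error 0.71). Hoxa7 had 39.5 and 17.7 against 142 and 144. In Hoxa5 and Hoxa7 both mutant-labelled libraries were above both WT libraries, and WT replicate 2 was the lowest library in each. Hoxa6 passed the filter only through the mutant-labelled libraries, so it had to differ, and its values are only a description.

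Hoxa4, next to them in the cluster, had 40.3 and 8.31 normalized counts in WT and 76.4 and 70.8 in the mutant-labelled libraries. Its log2 fold change of 1.93 was above the median of all genes, but the spread between the WT lines was wide (standard error 0.70) and it was not called, although it was without WT replicate 1 and with quantile normalization.

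The 5 central Hoxb genes, which lie side by side, were all called higher, beside 11.3% of all genes tested. Hoxb4, known for expanding blood stem cells, had 267 and 209.9 normalized counts in WT and 452 and 573 in the mutant-labelled libraries, and the smallest log2 fold change of the 5, 1.10 (standard error 0.21). Hoxb5, with a role in enteric neurons, had 62.2 and 26.0 against 153 and 167. Hoxb6 had 44.7 and 27.0 against 189 and 233, and the largest log2 fold change of the 5, 2.56 (standard error 0.34). Both WT libraries were below both mutant-labelled libraries in these genes, and Hoxb4 and Hoxb5 lost the call without WT replicate 2, Hoxb4 also without mutant-labelled replicate 2. Hoxb7 had 35.1 and 43.6 against 202 and 210.1 (log2 fold change 2.37, standard error 0.27). Hoxb8, which acts in blood progenitors and the trunk, had 11.4 and 9.35 against 50.9 and 78.5 (log2 fold change 2.50, standard error 0.41, not called without WT replicate 2). Hoxb7 and Hoxb8 share 1069 exon bases in the annotation, so reads there could have been counted for either or for neither.

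The central Hoxc genes differed less. Hoxc4, Hoxc6 and Hoxc8, the last a regulator of brachial motor neurons, were not called, with log2 fold changes of 0.16, 0.52 and 0.58. Hoxc4 had 94.7 and 93.5 normalized counts in WT and 104 and 106 in the mutant-labelled libraries, the smallest log2 fold change of all 38. Hoxc6 had 117 and 171 against 223 and 186, and Hoxc8 had 146 and 110.1 against 179 and 200.2. Hoxc5 alone of the 4 was called higher, with 31.6 and 30.1 against 92.0 and 81.8 (log2 fold change 1.46, standard error 0.31), and it lost the call without WT replicate 2 and without either mutant-labelled library. The median over the 4 genes was 0.55, against 2.37 for the 5 central Hoxb genes and 2.74 for the 4 central Hoxa genes. The Hoxa median includes Hoxa6, which passed the filter only through the mutant-labelled libraries. The gap between clusters was not tested.

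In the Hoxd cluster, Hoxd4, with a role in the cervical vertebrae, had 13.2 and 7.27 normalized counts in WT and 35.2 and 46.5 in the mutant-labelled libraries, a log2 fold change of 1.94 (standard error 0.47). It was not called without WT replicate 2 or without either mutant-labelled library, and it shares 1725 exon bases with Hoxd3. Hoxd8 was not called, with 391 and 248 in WT and 396 and 531 in the mutant-labelled libraries. Like Hoxc8, it was already among the higher Hox genes in WT. The log2 fold changes of group 8 were 0.56 for Hoxd8, 0.58 for Hoxc8 and 2.50 for Hoxb8.

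Groups 9 to 13 are the posterior genes, known for patterning the lumbar and sacral trunk, the limbs and the urogenital tract. Of 16 such genes 15 were tested and 14 were called higher, all except Hoxc13, a gene of hair and nail formation with 20.2 and 22.9 normalized counts in WT and 33.3 and 24.3 in the mutant-labelled libraries. Of all genes tested, 11.3% were called higher. Fewer posterior genes were called without WT replicate 2 or without either mutant-labelled library. Of the anterior genes 5 of 8 tested were called higher and of the central genes 10 of 15, with fewer in both without WT replicate 2. Median log2 fold changes were 1.81, 1.94 and 2.07 in anterior, central and posterior genes. Without WT replicate 2 the medians were 1.35, 1.43 and 1.97. The central and posterior counts include Hoxa6 and Hoxc12, which passed the filter only through the mutant-labelled libraries.

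Group 9 was called higher in all 4 clusters, beside 11.3% of all genes tested. Hoxa9, which acts in blood progenitors, had 87.7 and 69.6 normalized counts in WT and 387 and 468 in the mutant-labelled libraries (log2 fold change 2.43, standard error 0.24). Hoxb9 had 57.0 and 64.4 against 139 and 182, and Hoxc9, which sets thoracic motor neuron identity, had 80.7 and 43.6 against 189.9 and 154. Hoxd9 had 168 and 83.1 against 280.0 and 341. The log2 fold changes of the last 3 lay between 1.38 and 1.51, and each of the 3 lost the call without WT replicate 2 and also without 1 of the mutant-labelled libraries.

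Group 10, which suppresses rib formation in the lumbar vertebrae, was called higher in each cluster that holds it. Hoxa10 had 188 and 147 normalized counts in WT and 534 and 629 in the mutant-labelled libraries. Hoxc10 had 110.5 and 128 against 289.8 and 357. Hoxd10 had 63.1 and 48.8 against 258 and 241. The WT lines lay close together in these genes, the log2 fold changes were 1.8, 1.43 and 2.15 (standard errors 0.21, 0.22 and 0.26), and the 3 calls held without each library in turn.

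Group 11 genes are needed for the forearm and the kidney. Hoxa11 had 105 and 116 normalized counts in WT and 424 and 514 in the mutant-labelled libraries. Hoxc11 had 27.2 and 11.4 against 98.9 and 123. Hoxd11 had 49.97 and 61.3 against 407 and 389, and differed by 2.82 on the log2 scale (standard error 0.23). None of these genes lost the call without any 1 library. Of the exon bases of Hoxa11, 38.6% are shared with Hoxa11as on the other strand, and the library kit named in the labels was TruSeq RNA v2, which does not mark strand, so reads of the pair cannot be told apart there.

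Group 12 holds 2 genes, both late and posterior. Hoxd12, a digit gene, had 20.2 and 14.5 normalized counts in WT and 184 and 233 in the mutant-labelled libraries, a 12.02-fold difference of means (log2 fold change 3.52, standard error 0.33). Hoxc12 had 0.877 and 2.08 normalized counts in WT, 3 reads in all, and 27.4 and 25.4 in the mutant-labelled libraries, 51 reads in all. The ratio of these reads, scaled by library, was 18.6 (95% exact interval 6.005 to 93.0, counting error only). Both genes were low in WT, and Hoxd12 kept the call without any 1 library. Hoxc12 passed the filter only through the mutant-labelled libraries, so it had to differ, and its call and interval are only a description.

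Group 13, the last genes switched on, act at the tips of the limbs and the end of the gut and urogenital tract. Hoxd13 had 141 and 75.9 normalized counts in WT and 525 and 620.5 in the mutant-labelled libraries, a log2 fold change of 2.45 (standard error 0.32). Hoxa13 had 317 and 269 against 450.3 and 531, a smaller log2 fold change of 0.74 (standard error 0.18), and its call was lost without WT replicate 2 and without either mutant-labelled library. With Hoxc13 at 0.39 and Hoxb13 not tested, the group was uneven.

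**Figure D2:**
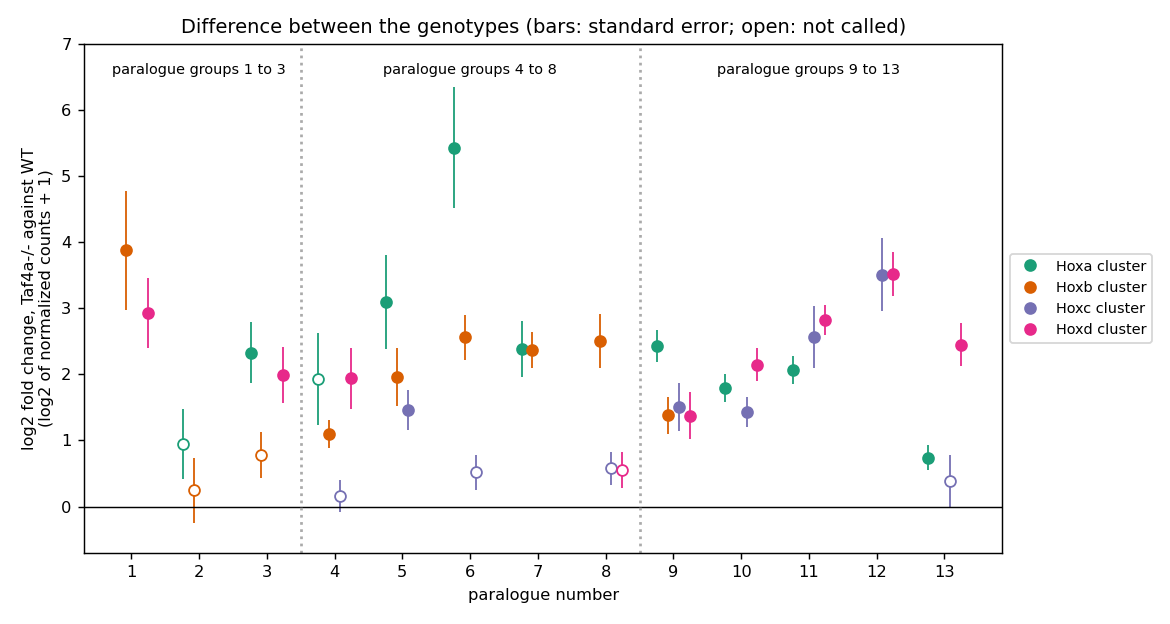
Log2 fold change of the mutant-labelled against the WT libraries, on the log2(normalized counts + 1) scale, for the tested Hox genes shown by paralogue number, coloured by cluster, with standard errors as bars and open circles for genes not called. The points lie above 0 in every paralogue group, with no trend along the paralogue number, and groups 2 and 8 and the central Hoxc genes hold most of the low values.

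Along the paralogue number the log2 fold change had no trend across the 38 genes (Pearson's r 0.05, Spearman's rho 0.10, a description across genes that share 4 libraries). It went instead with the WT level. Genes with more normalized counts in WT had smaller log2 fold changes (r -0.53, rho -0.62), a relation in which the WT level enters both measures. Medians were low in groups 8, 2 and 13, with 0.58, 0.60 and 0.74.

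Levels between genes were compared per kb of exon. In WT, Hoxa13 was highest with 119 normalized counts per kb and Hoxd8 came next with 116, while Hoxc12 and Hoxa6 were lowest with 1.43 and 1.52. In the mutant-labelled libraries Hoxd13 was highest with 231 per kb, followed by Hoxa13 with 199, Hoxa11 with 174 and Hoxb1 with 172 (286 in replicate 1 and 58.1 in replicate 2), and Hoxb13 was lowest with 1.45. The order of genes was partly kept between the genotypes (r 0.68, rho 0.71 over 38 genes).

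By cluster, 9 of 11 Hoxa, 7 of 9 Hoxb, 5 of 9 Hoxc and 8 of 9 Hoxd genes tested were called higher. Of all genes tested, 11.3% were. The Hoxa and Hoxc counts include Hoxa6 and Hoxc12, which passed the filter only through the mutant-labelled libraries. Without WT replicate 2 fewer genes were called in every cluster. The median log2 fold changes were then 1.66, 1.47, 1.07 and 1.97, in place of 2.07, 1.96, 1.43 and 2.15. Summed levels were 3.33-fold higher for Hoxa, 3.16-fold for Hoxb, 2.01-fold for Hoxc and 3.40-fold for Hoxd. The Hoxc cluster took 18.5% and 25.0% of the summed Hox counts in the WT libraries and 14.2% and 14% in the mutant-labelled libraries. The shares of Hoxa were 32.7% and 31.8% against 35.3% and 35.7%. Those of Hoxb and Hoxd overlapped between the genotypes.

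The WT lines differed from each other along the clusters. WT replicate 1 was above WT replicate 2 in 30 of the 38 Hox genes tested, with a median difference of 0.68 on the log2 scale. In the anterior genes it was above in 8 of 8, with a median of 1.3, in the central genes in 13 of 15, with a median of 0.65, and in the posterior genes in 9 of 15, with a median of 0.33. Across the 38 genes the difference fell with paralogue number (r -0.51, rho -0.54), most in Hoxb (r -0.85 over 9 genes) and not in Hoxc (r 0.03 over 9 genes). The Hoxc cluster holds no anterior gene, so its r covers a narrower range of paralogue numbers. These r values describe 1 pair of libraries. Across the same 38 genes the mutant-labelled replicates had no such offset, with replicate 1 above in 16 of 38 and a median difference of -0.09. Mutant-labelled replicate 1 was above in 6 of 8 anterior genes (median 0.11). It was above in 5 of 15 central genes (median -0.06) and 5 of 15 posterior genes (median -0.24). The relation of this difference to paralogue number was not tested in the mutant-labelled pair.

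**Figure D3:**
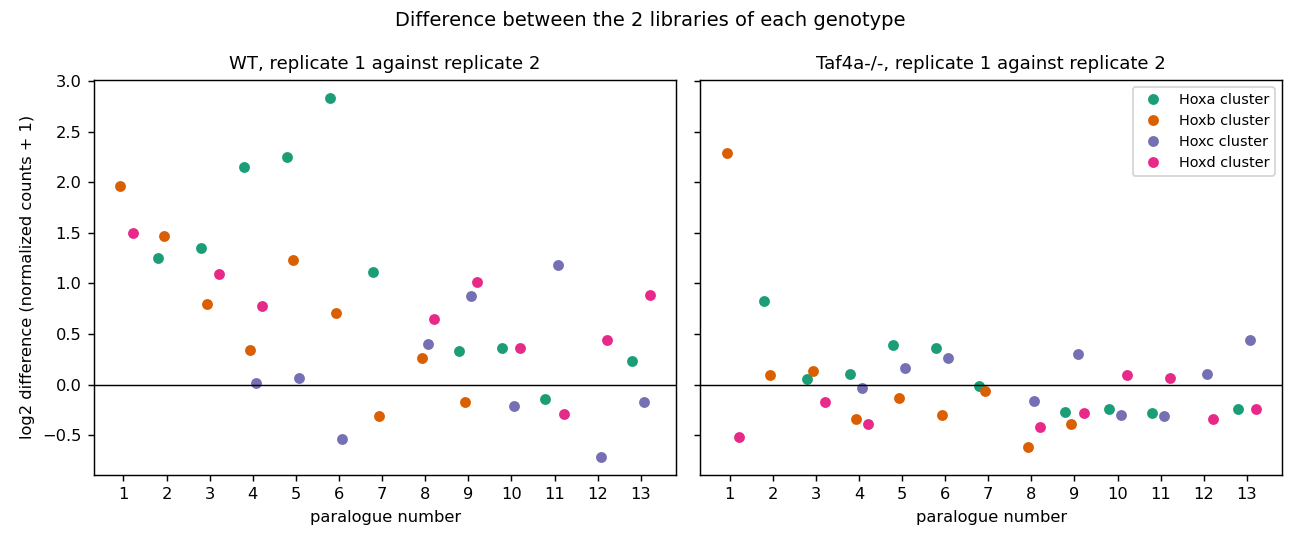
Log2 difference between replicates 1 and 2 within WT (left) and within the mutant-labelled libraries (right) for the tested Hox genes shown, by paralogue number and coloured by cluster. In WT the points for groups 1 to 3 all lie above 0 and those for groups 9 to 13 lie on both sides, while on the right the points scatter about 0 apart from Hoxb1 at 2.29.

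Markers of other cell types were compared in the same libraries, where 11.3% of all genes tested were called higher and 17.3% lower. Of 10 pluripotency genes 9 were called higher in the mutant-labelled libraries, with a summed level of 5479 and 2061 normalized counts in WT against 17668 and 20022. WT replicate 1 was above replicate 2 in 10 of these 10, with a median difference of 0.85, the same side as the Hox genes. Of 12 fibroblast and mesenchyme markers 7 were called lower and 1 higher, with sums of 440963 to 609618 in WT against 58062 to 71301. All 8 macrophage markers were called lower, with sums of 11083 to 13585 in WT against 183 to 201, and so were all 8 visceral endoderm and liver markers, with 52792 to 61564 against 708 to 919. Of 5 germ cell markers tested 4 were higher, and of 6 endothelial and 8 blood markers 0 were higher, with 0 and 1 lower. Of the markers of tissues known for Hox expression, paraxial mesoderm had 2 of 6 tested genes higher and 0 lower, neural progenitors 1 of 5 higher and 0 lower, neurons 0 of 7 higher and 1 lower, limb and lateral plate 0 of 8 higher and 2 lower, and kidney 0 of 5 either way. The ranges of their sums were 296 to 494 in WT against 818 to 880.0 for paraxial mesoderm. Of its 6 tested genes, 3 had log2 fold changes above 0 and 3 below. Its 2 genes called higher were Tcf15, with 41.2 and 24.9 normalized counts in WT and 314 and 248 in the mutant-labelled libraries, and Tbx18, with 126 and 102 against 372 and 389. Both mutant-labelled libraries were below both WT libraries in Meox1, with 216 and 108 against 99.8 and 104, which was not called. Myf5, a gene of muscle precursors, had at most 1.11 in any library. In lists this short, counts of 0 to 2 calls differ little from the shares over all genes and are not read as results about a tissue. The part of these cell types in the Hox values was not tested.

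Other genes inside the clusters, mostly antisense and noncoding RNAs, are given beside genes just outside them. Several share exon bases with Hox genes on the other strand, among them Hoxa11as with Hoxa11, Hoxb3os with Hoxb2 and Hoxb3, and 5730596B20Rik with Hoxa3. Likewise 1700109F18Rik shares bases with Hoxd3. The library kit did not mark strand, so reads there cannot be told apart, and these differences are not fully separate from those of the Hox genes. Of 21 inside the span of a cluster 15 were tested, and 7 of these passed the filter only through the mutant-labelled libraries, so they had to differ. Of the other 8, 5 were called higher and 0 lower, with 11.3% of all genes tested called higher, and the median was 1.5 on the log2 scale. Of all 15, 11 were called higher, a count that includes genes that had to differ. Among the 8, 1700109F18Rik, 6720416L17Rik, Gm15051 and Hoxb3os lost the call without WT replicate 2. Without either mutant-labelled library, 1700109F18Rik and Hoxb3os lost it, and 6720416L17Rik did without mutant-labelled replicate 2. Gm16258, between Hoxc11 and Hoxc12, had 1.75 and 1.04 normalized counts in WT and 45.0 and 55.3 in the mutant-labelled libraries. In Hoxa, 5730596B20Rik had 1.75 and 4.16 against 55.8 and 53.1. Both are among the 7 that passed only through the mutant-labelled libraries. Hoxa11as, on the strand opposite Hoxa11, had 70.1 and 46.8 against 315 and 400.4 (log2 fold change 2.61, adjusted p = 0.00328 from limma). Gm11539, between Hoxb13 and Hoxb9, was the 1 tested gene inside with a log2 fold change below 0, with 1364 and 1067 in WT and 975 and 972 in the mutant-labelled libraries, and was not called. Hoxb3os had 132 and 87.3 against 212 and 204 and was called, though not without WT replicate 2 or either mutant-labelled library.

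Of the 15 protein-coding genes taken as the nearest on either side of the clusters, 3 were called higher and 0 lower, beside 11.3% of all genes called higher, and the median was 0.18 on the log2 scale. The 3 lay beside Hoxb. Calcoco2, an autophagy receptor, had 29.8 and 11.4 normalized counts in WT and 149.8 and 139 in the mutant-labelled libraries (log2 fold change 2.89, adjusted p = 0.0099 from limma). Ttll6, a tubulin-modifying enzyme, had 9.64 and 13.5 against 36.2 and 63.0, and Snx11 had 283 and 347 against 555 and 483, and both of these lost the call without either WT library or mutant-labelled replicate 2, Snx11 also without mutant-labelled replicate 1. Beside Hoxa, the homeobox gene Evx1 had 207 and 144 normalized counts in WT and 187 and 179 in the mutant-labelled libraries, and Hibadh and Skap2 had log2 fold changes of 0.08 and -0.03. Beside Hoxd, Evx2 had 28.1 and 4.16 against 41.1 and 28.8 and was not called, and Mtx2 had a log2 fold change of 0.18. Beside Hoxc, Cbx5 and Calcoco1 had 0.10 and 0.06.

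**Figure D4:**
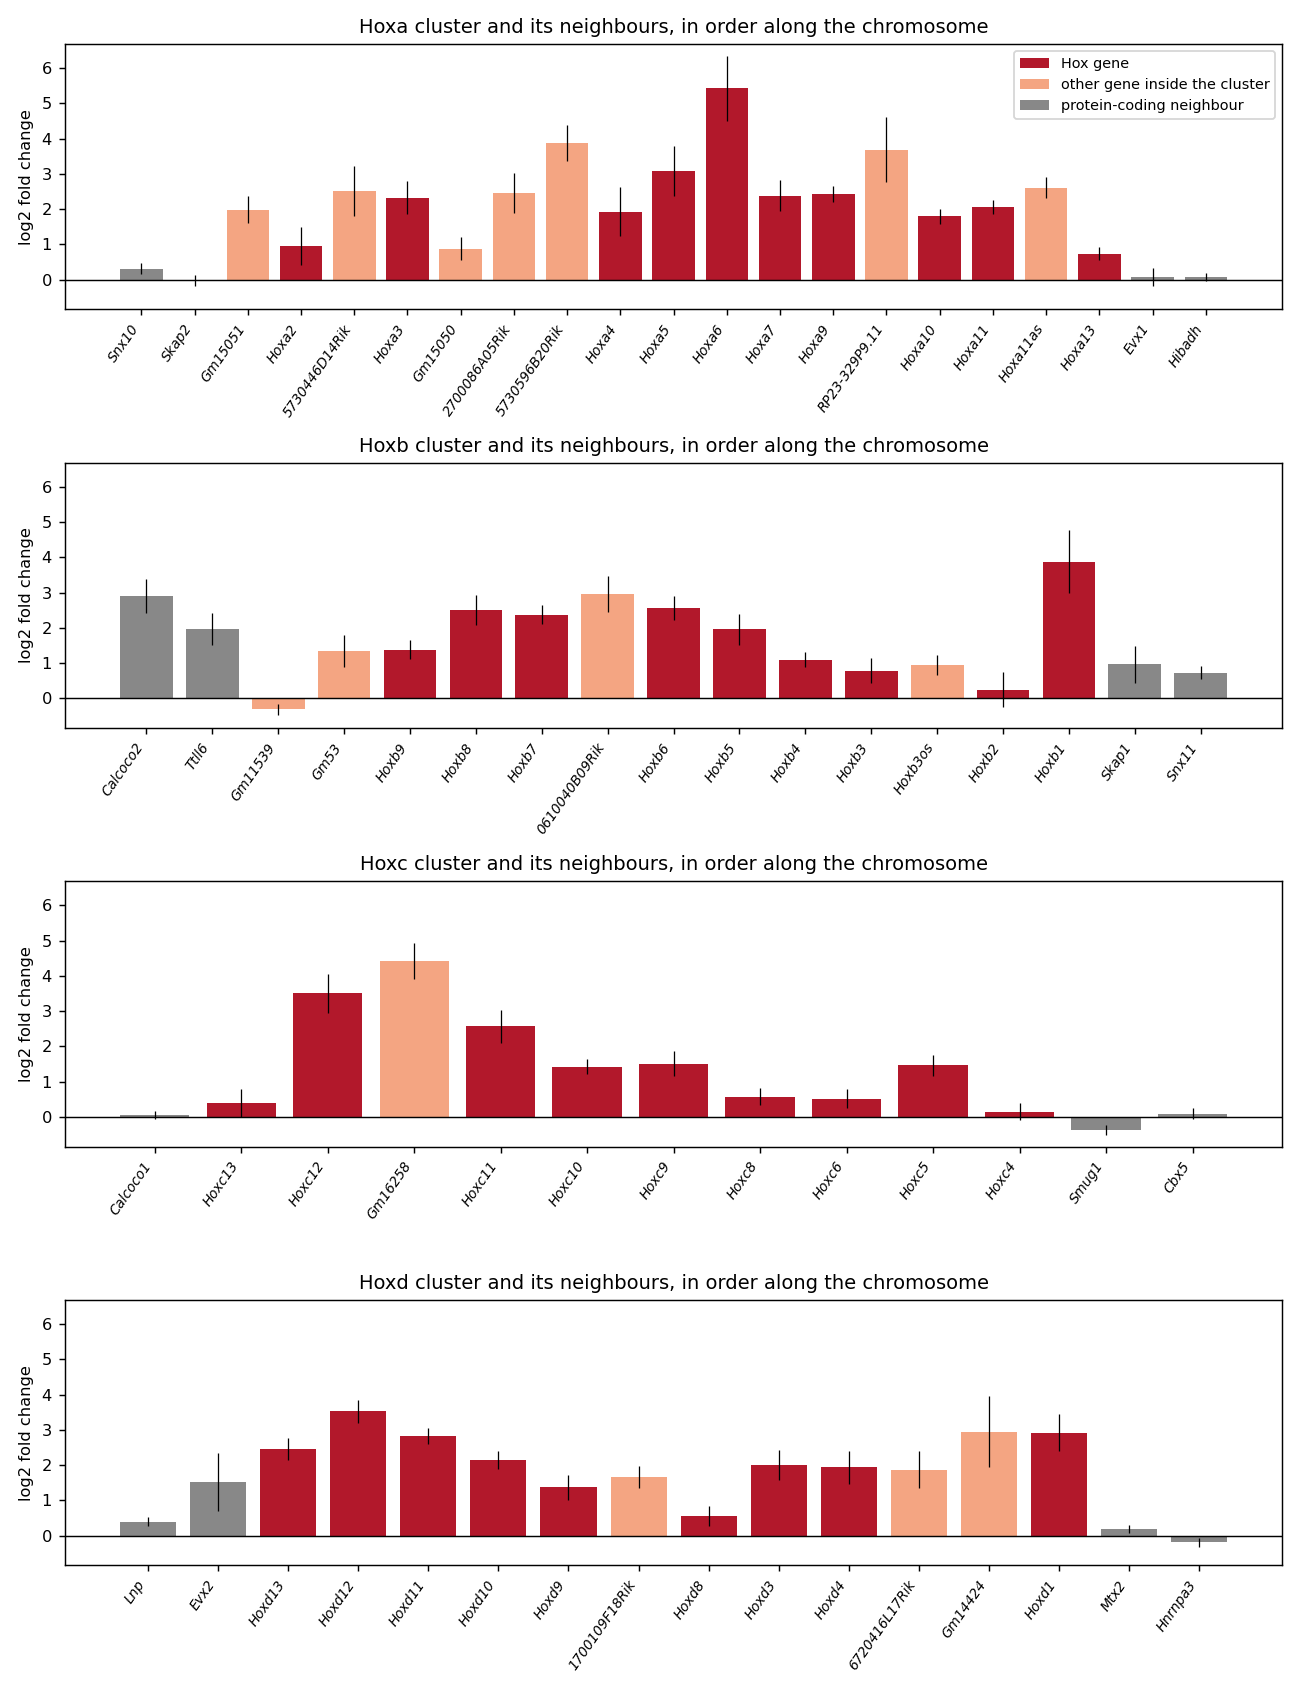
Log2 fold change of the mutant-labelled against the WT libraries for the tested genes shown in and beside each cluster, in their order along the chromosome (bars from 0, with standard errors), with Hox genes in dark red, other genes inside the cluster in light red and the nearest protein-coding genes in grey. The grey bars beside Hoxa and Hoxc lie between -0.36 and 0.31, while Calcoco2 beside Hoxb reaches 2.89.

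Of 18 Hox genes that share exon bases with another gene 15 were called higher, and their median difference was 1.98 on the log2 scale. Of the 20 tested that share none 14 were called higher, with a median of 1.86. Of all genes tested, 11.3% were called higher. The 20 include Hoxa6 and Hoxc12, which passed the filter only through the mutant-labelled libraries. Hoxa3 has a second identifier in the annotation that overlaps the one counted, and 53.5% of its exon bases are shared.

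A list of 35 genes that control the clusters or work with Hox proteins had 33 tested members, of which 10 were called higher and 5 lower, and the median was 0.28 on the log2 scale. Of all genes tested, 11.3% were called higher and 17.3% lower. Without WT replicate 2 these counts were 7 and 1, without WT replicate 1 they were 15 and 2 (Cdx1, Egr2, Pbx2 and Pbx3 lost), and without either mutant-labelled library they were 5 and 3. The list was chosen with earlier results of these data known, so the p-values of its genes describe the differences and do not test them anew. Genes of the retinoic acid pathway were among both the higher and the lower genes. Aldh1a2, which makes retinoic acid, had 522 and 410.4 normalized counts in WT and 1510.5 and 1676 in the mutant-labelled libraries (log2 fold change 1.78, adjusted p = 0.00203 from limma). Cyp26b1, which degrades it, rose from 190.2 and 101 to 539 and 764 (log2 fold change 2.20, adjusted p = 0.00811 from limma). Cyp26a1, which also degrades it and is a target of it, was lower, with 984 and 1112 in WT and 581 and 411 in the mutant-labelled libraries. Rarb, a receptor and itself a target, fell from 1723 and 2209 to 661 and 753 (log2 fold change -1.47, adjusted p = 0.00337 from limma). Cyp26a1 lost its call without WT replicate 2, and the calls of Aldh1a2, Cyp26b1 and Rarb held without each library in turn.

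Among the other activators, Cdx1, a direct regulator of Hox genes, had 3.51 and 5.20 normalized counts in WT and 35.2 and 21.0 in the mutant-labelled libraries and was called higher, but it passed the filter only through the mutant-labelled libraries, so its call is given with no p-value, and it was lost without WT replicate 1, WT replicate 2 or mutant-labelled replicate 1. Cdx2 had 308 and 283 against 496 and 399 and was not called, and Cdx4 was too low to test. Gdf11, the signal that starts posterior Hox expression in the tail bud, had 481 and 589 against 1179.6 and 1051 (log2 fold change 1.06, adjusted p = 0.00738 from limma). Egr2, the Krox20 gene that drives Hoxb2 in the hindbrain, was lower, with 50.8 and 52.0 against 18.6 and 11.1 (log2 fold change -1.77, adjusted p = 0.0263 from limma, not called without WT replicate 1, WT replicate 2 or mutant-labelled replicate 2). T, a gene of the primitive streak, differed 3.75 on the log2 scale between the WT lines, with 194 and 13.5 normalized counts, and had 405 and 210.1 in the mutant-labelled libraries.

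The chromatin genes on the list included Polycomb subunits. Cbx2 had 1663 and 833 normalized counts in WT and 2329.8 and 2311 in the mutant-labelled libraries (log2 fold change 0.98) and was not called. Jarid2, Suz12, Eed and Bmi1 of the Polycomb complexes, and Mll1, which marks active Hox genes, were called higher with log2 fold changes from 0.52 to 0.76. Of these, Suz12 and Bmi1 lost the call without WT replicate 2, Mll1, Eed and Bmi1 without either mutant-labelled library, Suz12 without mutant-labelled replicate 1 and Jarid2 without mutant-labelled replicate 2. Of the partners that bind DNA with Hox proteins, Meis1 was called higher (log2 fold change 0.66) and Pbx2 and Pbx3 lower (-0.59 and -0.83), and each of these calls was lost without at least 1 library. Of 11 other homeobox genes tested, 1 was called, Cdx1, beside 11.3% of all genes called higher.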

How the data were processed

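The authors mapped the reads to mm9 and deposited 1 table of gene-level read counts divided by a DESeq size factor (normalized counts, with decimal commas). Per the submitters' processing notes the tools were CASAVA 1.8, TopHat 1.3.3, HTSeq 0.5.3p1 and DESeq. Every value was a whole multiple (tolerance 0.001) of its library's smallest, so reads were recovered. Symbols and identifiers came from the table, and exon lengths, overlaps and neighbours from the mm9 gene annotation, in which all 24637 identifiers were found. Genes whose mean was at least 10 (16926) were fitted with limma 3.58.1 (lmFit, and eBayes with a trend) in R 4.3.3 on log2(value + 1) over 4 libraries, with Benjamini-Hochberg adjustment over all of them. The fit was tested on simulated data. Figures were drawn in Python 3.11.15.

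The Hox family, the regulator list and the marker lists were chosen with earlier results of these data known. Hox genes were named, with values in every library for each gene called, or with non-overlapping genotypes at least 2-fold apart. Hox genes below that, and regulators beyond the 8 largest changes, were added. Replicate numbers were names only (correlation of same-numbered deviations 0.0118). Kmt2a and Map2 stand under older symbols in the table as Mll1 and Mtap2. P-values measure the spread between 2 lines per genotype. The values of 1 Hox gene, which is counted in the totals and not drawn, are not reported here.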

Additional observations from a re-analysis of the deposited data

How the results depend on the processing

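At an adjusted p under 0.01, 12 Hox genes and 5 genes of the regulator list were called, in place of 29 and 15. The median log2 fold change of the Hox genes was 1.69 with a pseudocount of 10, and 2.25 after quantile normalization, where all genes had a median of 0.11 and 2624 were called higher and 2460 lower, against 1906 and 2928. Leaving out each library in turn gave 17 to 30 Hox genes, 8 to 17 regulators and a median of 1.54 to 2.27. With the replicate block, 28 Hox genes (Hoxa13 lost) and 17 regulators were called. The labels do not say that a number is shared by a pair of lines, and the numbers serve as names. With other pseudocounts, filters and scalings, 26 to 31 Hox genes were called, and with voom, chosen after seeing the data, 28 (Hoxb1 lost). No setting called a Hox gene lower. The count tests planned with other tools were not run. Genes under about 10 normalized counts, such as Hoxb13, could not be compared at this depth, and 2 lines per genotype limit every comparison.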

Other observations

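Outside the clusters, WT replicate 1 was above WT replicate 2 in 8 of 11 other homeobox genes tested, with a median difference of 0.58 on the log2 scale, and in 21 of 33 tested genes of the regulator list, with a median of 0.18. Gbx2, a gene of the border between midbrain and hindbrain, was counted at 25.4 (replicate 1) and 3.12 (replicate 2) in WT, while En1 and Cdx1 had differences of -0.33 and -0.46 on the log2 scale. Over all 16926 genes tested the median difference was -0.02, and replicate 1 was above replicate 2 in 8152 of them.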
